A study of Mus musculus with 6 samples.

Results

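The genes described are 36 genes of the unfolded protein response and of the endoplasmic reticulum (ER) secretory machinery, out of 18193 genes that had a probe set with a single gene symbol on the array. Each gene was represented by its brightest such probe set over the 6 arrays, leaving out control probe sets. All 36 lay above the filter on low signals and were among the 12320 genes tested. They fall into 6 arms: 10 folding chaperones, 7 genes of disulfide exchange, 6 of ER-associated degradation, 4 for the stress sensors and Xbp1, 6 of the integrated stress response and 3 of translocation and COPII transport. Ero1l and Ero1lb are listed in the annotation under the later symbols Ero1a and Ero1b.

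The arrays measured total RNA of mouse KSL cells, the c-Kit+ Sca-1+ lineage-negative bone marrow fraction in which blood stem cells and their earliest progenitors lie, from C57BL/6J animals. Both groups had been grown for 7 days on a layer of HUVEC, endothelial cells from human umbilical veins, with 5 mouse cytokines, written m5GF in the labels, and had been sorted again as KSL cells before extraction. The PBS group (3 arrays) received PBS, the vehicle, and the mD1R group (3 arrays) was given mD1R instead. That name is not spelled out in the labels, and the agent is known from the study as a soluble protein made from the Notch-binding part of mouse Delta-like 1 and a peptide that binds endothelial cells, so the comparison asks how this ligand altered RNA levels in cells kept in the KSL gate. The labels call the arrays biological replicates and give neither the age of the animals nor whether animals were pooled.

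The ER folds the proteins that a cell secretes or places in its membranes. When unfolded protein accumulates there, the sensors Ire1 (gene Ern1), Perk (Eif2ak3) and Atf6 raise folding chaperones, oxidoreductases and degradation factors through the transcription factors Xbp1, Atf6 and Atf4, and Perk slows translation by phosphorylating eIF2 alpha. Other eIF2 alpha kinases, such as the amino acid sensor Gcn2 (Eif2ak4), feed into the same Atf4 branch, which is called the integrated stress response. Blood stem cells are known for low protein synthesis and for responding to ER stress through the Perk branch.

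Promoter windows from RefSeq (build GRCm38.p6, 250 bases before to 50 after the start) were found for 32 of the 36 genes, 33 windows in all since Sec23b has 2; Hyou1, Manf, Derl1 and Atf6 have none here. They were searched on both strands for the motifs of this response. The ER stress element (ERSE, bound by Atf6 with NF-Y) is CCAAT and CCACG with 9 bases between them. ERSE-II is ATTGG and CCACG with 1 base between them. UPRE (an Xbp1 and Atf6 motif) is TGACGTGG, and CARE (bound by Atf4 with C/EBP factors) is TGATGNAA. An ERSE match overlaps by construction with a match to CCAAT and to CCACG alone. The stretches below are shown because they carry these letters in the genes whose levels are followed in the next paragraphs, with the matched letters in capitals and 10 flanking bases on each side. All lie upstream of the start.
Hspa5: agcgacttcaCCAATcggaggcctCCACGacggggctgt
Calr: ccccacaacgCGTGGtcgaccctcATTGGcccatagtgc
Canx: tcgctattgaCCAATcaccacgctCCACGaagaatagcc
Pdia6: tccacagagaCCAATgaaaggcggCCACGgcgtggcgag
Dnajc3: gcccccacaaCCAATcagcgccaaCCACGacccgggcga
Syvn1: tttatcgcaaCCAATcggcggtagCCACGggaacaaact
Creld2: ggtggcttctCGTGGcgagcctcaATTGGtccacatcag
Herpud1: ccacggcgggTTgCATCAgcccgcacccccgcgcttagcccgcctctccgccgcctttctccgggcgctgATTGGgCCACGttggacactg
Asns: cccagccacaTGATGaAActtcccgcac
Chac1: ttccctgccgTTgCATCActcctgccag
Sec24d: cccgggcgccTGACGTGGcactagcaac

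The ERSE stretches are those of Hspa5 at chr2:34772015-34772053 (plus strand), Calr at chr8:84847065-84847103 (minus strand), Canx at chr11:50325790-50325828 (minus strand), Pdia6 at chr12:17266481-17266519 (plus strand), Dnajc3 at chr14:118937817-118937855 (plus strand), Syvn1 at chr19:6046522-6046560 (plus strand) and Creld2 at chr15:88819510-88819548 (plus strand). Herpud1, a membrane adaptor of ER-associated degradation, holds a CARE match and an ERSE-II match within one stretch at chr8:94386307-94386397 (plus strand). Asns, at chr6:7693215-7693242 (minus strand), and Chac1, at chr2:119351039-119351066 (plus strand), hold a CARE match. Sec24d, at chr3:123267460-123267487 (plus strand), holds the UPRE match. In Calr and Creld2 the ERSE is read on the strand opposite to the gene, and so appears as CGTGG followed by ATTGG.

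An ERSE match was found in 10 of the 33 windows (30.3%), those of Calr, Canx, Creld2, Derl3, Dnajc3, Ero1lb, Hsp90b1, Hspa5, Pdia6 and Syvn1, against 0.119% of all 32851 promoter windows of the same length. ERSE-II was found in 2 windows (6.06%, Dnajb11 and Herpud1, against 0.0365%). CARE was found in 4 windows (12.1%, Asns, Chac1, Herpud1 and Trib3, against 3.97%), and UPRE in 1 window (3.03%, Sec24d, against 0.676%). CCACG alone lay in 75.8% of the 33 windows against 32.8% of all windows, and CCAAT alone in 78.8% against 37.4%. Genes and motifs were both chosen as parts of this response, so the higher shares are not independent of that choice and test nothing. These shares describe sequence letters in a window and not factor binding.

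**Figure D1:**
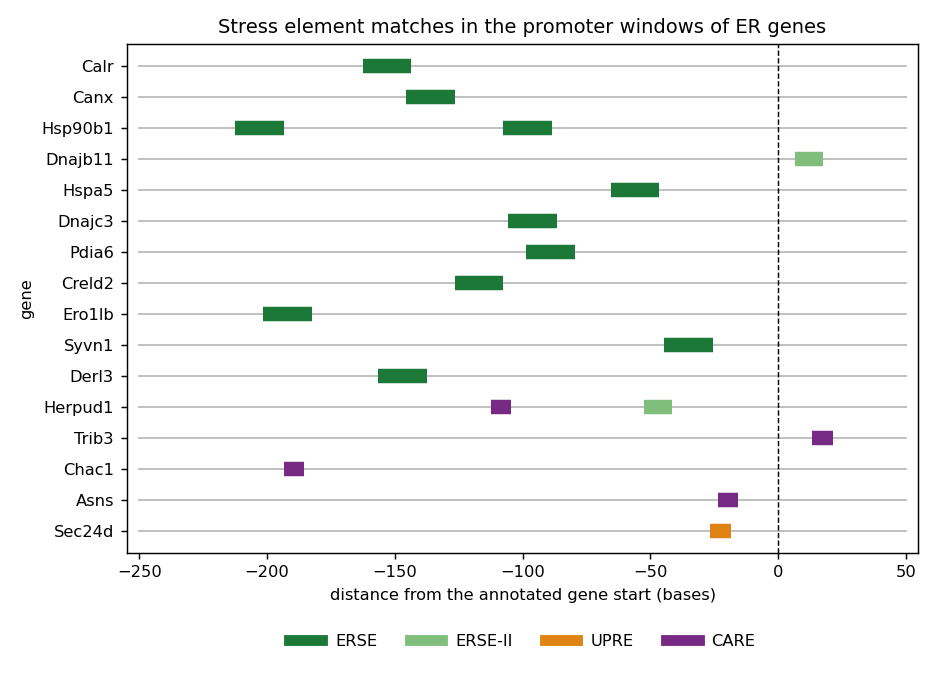
Positions of motif matches in the promoter windows of the ER genes that hold any of the 4 stress motifs, as distance in bases from the RefSeq start on the horizontal axis and 1 row per gene, with the kind of motif given by the marker. ERSE matches fill 10 of the rows, and Herpud1 holds both an ERSE-II and a CARE match.

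The whole data set frames the values that follow. Values are log2 signals. They were compared with limma, and a gene is said to have risen or fallen where the p-value adjusted over all probe sets tested was under 0.05. Errors are limma standard errors, with n = 3 arrays per group. Of the 12320 genes tested, 15.6% passed that threshold, 8.49% higher and 7.09% lower with mD1R. The array medians lay between 6.08 and 6.42, and along the first principal component mD1R replicate 3, at 12.6, lay between the PBS arrays (-79.4 to -64.5) and the other mD1R arrays (93.6 and 108.4). A spike-in control split the arrays into 2 sets that cross the groups, with PBS replicate 1 and mD1R replicates 1 and 2 in the first and the others in the second. Each change within a set rests on a single array of one group.

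Summed markers of other cells separated the groups for some lists and overlapped for the neutrophil and the B and plasma cell lists. Of 5 measured genes of stem and progenitor cells, Kit alone encodes a marker that defines the KSL gate. Their summed linear signal was 1972 to 2586 with PBS and 5225 to 11686 with mD1R. Of these, Procr (3.01) and Cd34 (1.98) rose, Flt3 fell (change -2.08), and Kit (1.35) and Slamf1 (1.40) did not pass; Ly6a, which encodes Sca-1, was not analysed here. The sum of 12 mast cell and basophil markers was 11332 to 14086 with PBS and 49569 to 67509 with mD1R, and that of 10 monocyte and macrophage markers was 58645 to 78396 and 117377 to 167887. Hdc (-1.34) of the first list and Ccr2 (-1.37) of the second went the other way without passing. For 12 neutrophil markers the sum was 282453 to 351872 and 35203 to 338443, for 10 B and plasma cell markers 27752 to 33581 and 6378 to 28709, and for 8 endothelial markers 896 to 1908 and 2119 to 5084. None of the 12 neutrophil changes was above 0 (median -3.46), where 55.5% of all genes were. Fcnb (-4.97) and Mmp9 (-4.38) fell, 16.7% of the list against 7.09% of all genes, and the other 10 did not pass. The list median was -4.91 in the first spike-in set and -0.093 in the second. Members of the B and plasma cell list went both ways, since Cd79b, Ebf1 and Igll1 fell, whereas Sdc1 (2.01) and Prdm1 (1.94), which mark plasma cells among others, rose. The 4 tested genes of the endothelial list were all above 0, and only Pecam1 rose (1.41). Of its 4 genes below the filter, which were not tested, Cdh5 (-2.65) and Emcn (-1.41) were lower on every mD1R array. The 9 mitosis genes measured all fell, with sums of 40274 to 50346 and 10449 to 18579. No marker was at 0 on any array. The 3' to 5' difference of the actin control probe sets, a sign of RNA integrity, was 0.203 to 0.266 with PBS and 0.373 to 0.459 with mD1R, without overlap. That of the Gapdh controls overlapped, at -0.475 to -0.327 and -0.411 to -0.256. The part of these differences in the ER results was not tested, and in such bulk samples fewer cells of a type and less RNA per cell cannot be told apart.

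Of the 36 ER genes, 4 rose with mD1R (Hyou1, Pdia4, Ern1 and Trib3) and 2 fell (Dnajb9 and Eif2ak3). The 6 make up 16.7% of the members, close to the 15.6% of all genes. The median log2 change was 0.28, against 0.09 over all genes tested, and 25 of the 36 changes (69.4%) were above 0, against 55.5% of all genes. The arrays of the groups did not overlap, with mD1R higher, in 14 members (38.9%), against a background of 22.1%. They did not overlap, with mD1R lower, in 6 members (16.7%), against 18.1%, and overlapped in the other 16. The typical size of a change, the median of its absolute value, was 0.39 against 0.45 over all genes. The 36 genes were chosen with earlier results of these data known, so these shares test nothing.

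**Figure D2:**
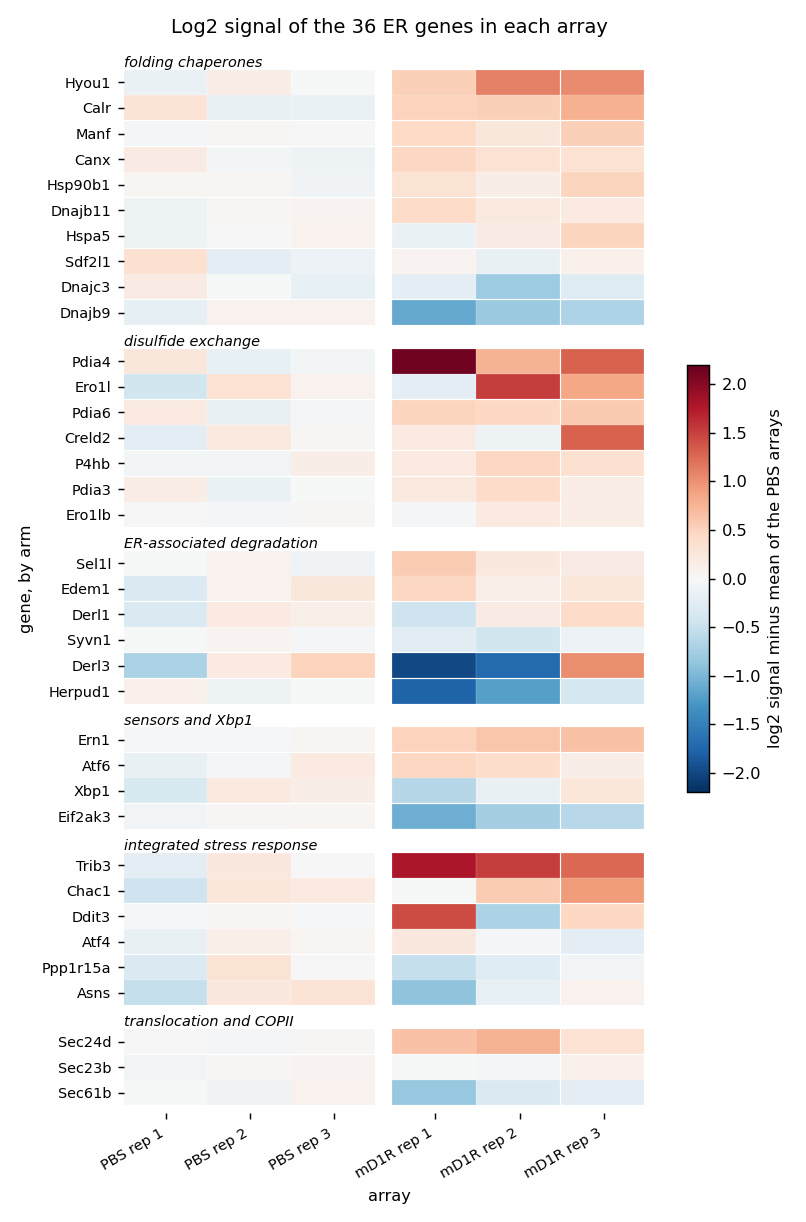
Log2 signal of each ER gene on each of the 6 arrays, as the difference from that gene's mean over the 3 PBS arrays, with genes in rows by arm and arrays in columns. Hyou1, Pdia4, Ern1 and Trib3 are above the PBS mean on all 3 mD1R arrays, and Dnajb9 and Eif2ak3 are below it on all 3.

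**Figure D3:**
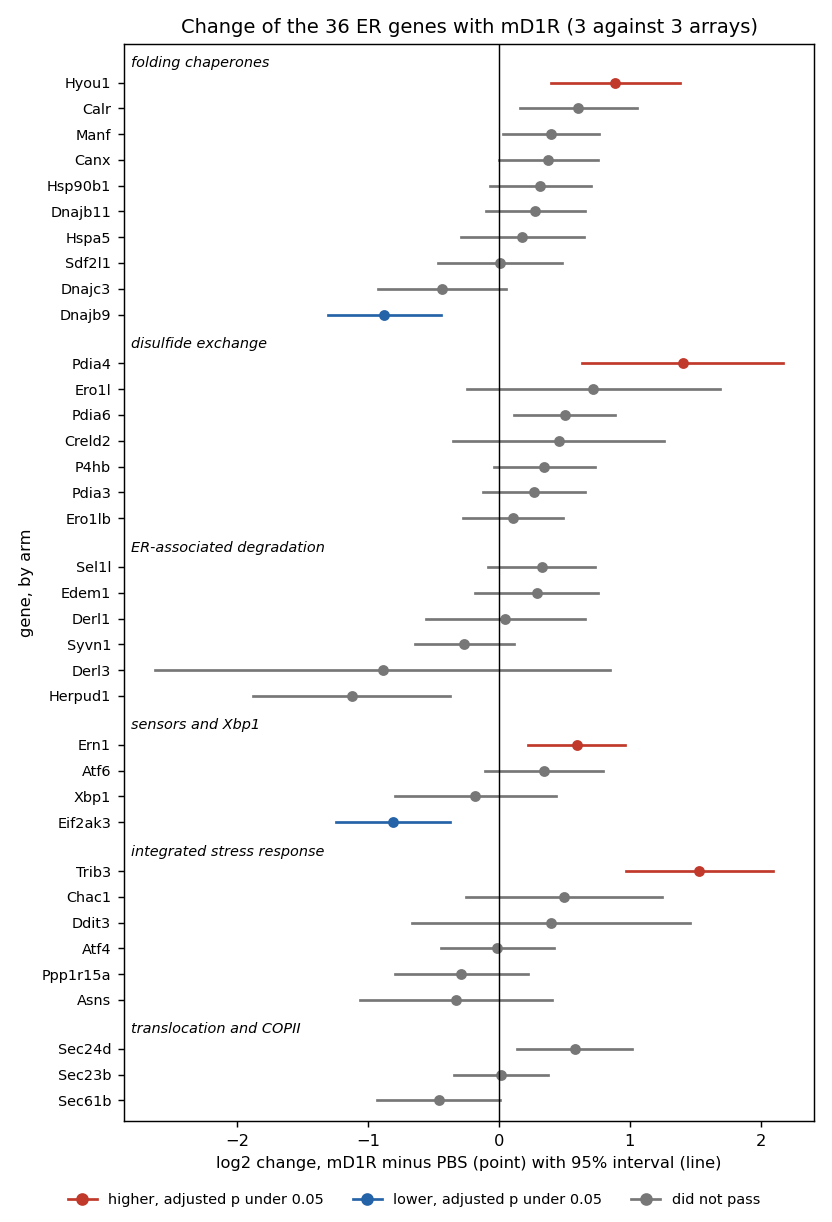
Log2 change with mD1R (point) with its 95% interval (line) for the 36 ER genes, ordered by size within each arm, with colour for the genes past an adjusted p of 0.05. Trib3, at 1.53, and Pdia4, at 1.40, have the highest changes, and Herpud1, at -1.12, the lowest, with an adjusted p of 0.0592.

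Among the 10 folding chaperones, Hyou1 rose, Dnajb9 fell and the other 8 did not pass the test (20% passed, against 15.6% of all genes). Hyou1 encodes Grp170, a large Hsp70-related chaperone and nucleotide exchange factor for BiP. Its log2 signal was 9.83, 10.14 and 9.98 on the PBS arrays and 10.50, 11.09 and 11.02 on the mD1R arrays. Every mD1R array lay above every PBS array, and the change was 0.89 ± 0.21 (SE, 95% interval 0.40 to 1.38, 1.85-fold, adjusted p = 0.0336). Within the spike-in sets it was 0.96 and 0.97. The brightest probe set of Hyou1 is of a kind that can match several transcripts, and its dimmer probe sets changed by 0.29 and -0.71 without passing.

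Dnajb9, also called ERdj4, is a J-domain co-chaperone that is known as an Xbp1 target and binds Ire1. Its signal was 11.83, 12.13 and 12.12 with PBS and 10.90, 11.22 and 11.34 with mD1R. All 3 mD1R arrays were lower than all PBS arrays, and it fell by 0.87 ± 0.19 on the log2 scale (95% interval -1.31 to -0.44, 1.83-fold, adjusted p = 0.0254). The change was -0.77 and -0.78 within the spike-in sets. Dnajb9 and Hyou1, both ER chaperone system genes, thus moved in opposite directions on the same arrays.

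Hspa5 encodes BiP, the central ER Hsp70 whose release from the sensors starts the response. It read 13.82, 13.94 and 14.01 with PBS and 13.78, 14.11 and 14.42 with mD1R. The groups overlapped, and the change was 0.18 ± 0.20 (95% interval -0.29 to 0.65, adjusted p = 0.602), so the interval allows a rise up to 0.65. Of its dimmer probe sets, the brighter one changed by 0.29 ± 0.18 (adjusted p = 0.313). The dimmest probe set of Hspa5 went the other way, reading 11.53, 11.90 and 11.47 against 10.19, 10.49 and 11.04 (change -1.06 ± 0.25, adjusted p = 0.0326). That dimmest one carries the suffix for probes that may match unrelated transcripts.

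Calr, the lectin chaperone calreticulin, read 13.12, 12.66 and 12.68 with PBS and 13.33, 13.35 and 13.61 with mD1R. The groups did not overlap, yet the change of 0.61 ± 0.19 (95% interval 0.16 to 1.05) had an adjusted p of 0.0773, and it was 0.22 in the first spike-in set and 0.94 in the second. Its other probe sets gave 0.67 and 0.64 (adjusted p = 0.0771 and 0.0681). Canx, the membrane-bound relative calnexin, changed by 0.38 ± 0.17 (adjusted p = 0.17). Manf, a secreted ER stress factor that binds BiP, read 12.12, 12.20 and 12.18 against 12.61, 12.41 and 12.68, a change of 0.40 ± 0.16 (adjusted p = 0.137).

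The other 4 chaperones did not pass. Hsp90b1 (Grp94, the ER Hsp90) changed by 0.32 ± 0.17 (adjusted p = 0.249) and Dnajb11 (ERdj3) by 0.28 ± 0.16 (adjusted p = 0.294), both without overlap between the groups. Dnajc3 (P58IPK, a co-chaperone that also restrains Perk) changed by -0.43 ± 0.21 (adjusted p = 0.214), again without overlap. Sdf2l1, part of a BiP complex, changed by 0.01 ± 0.21 and turned to -0.02 when the arrays were centred on their medians.

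All 7 disulfide exchange genes had a change above 0 (median 0.46), where 55.5% of all genes did. Only Pdia4 passed the test (14.3%, against 15.6% of all genes). Dimmer probe sets of Pdia6 (-0.02) and Ero1lb (-0.74) were below 0 without passing. Pdia4 encodes ERp72, a protein disulfide isomerase with several thioredoxin-like domains. It read 10.42, 9.99 and 10.12 with PBS and 12.32, 10.95 and 11.48 with mD1R. No mD1R array reached down to the PBS range, and mD1R replicate 1 stood highest. The change was 1.40 ± 0.33 (95% interval 0.64 to 2.17, 2.65-fold, adjusted p = 0.0328), with 1.21 and 1.43 in the spike-in sets. With the spike-in set as a block it was 1.32 with an adjusted p of 0.0517.

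Pdia6, the isomerase that binds Ire1 and Perk, read 11.63, 11.28 and 11.39 against 11.92, 11.89 and 12.00. The groups did not overlap, and the change of 0.50 ± 0.17 (95% interval 0.12 to 0.89) had an adjusted p of 0.0867. P4hb, the classical protein disulfide isomerase, read 13.36, 13.36 and 13.57 against 13.63, 13.91 and 13.79 and changed by 0.35 ± 0.17 (adjusted p = 0.207). Pdia3 (ERp57, the isomerase that works with calnexin and calreticulin) changed by 0.27 ± 0.17. Ero1lb, one of the oxidases that reload the isomerases, changed by 0.11 ± 0.17, and a dimmer probe set of it by -0.74 (adjusted p = 0.146).

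Ero1l, the other oxidase, also responds to hypoxia. It read 11.90, 12.66 and 12.42 with PBS and 12.12, 13.86 and 13.18 with mD1R, so mD1R replicate 1 lay within the PBS range and the change was 0.72 ± 0.42 (adjusted p = 0.291). Both dimmer Ero1l probe sets changed by 1.01, one without overlap, from 11.28, 11.89 and 11.70 to 12.07, 13.04 and 12.81 (adjusted p = 0.0546), and one with overlap (adjusted p = 0.156). Creld2, a small secreted ER stress protein, read 10.42, 10.86 and 10.67 against 10.85, 10.53 and 11.94. mD1R replicate 3 alone stood above the PBS range there, and the change was 0.46 ± 0.35 (adjusted p = 0.424).

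None of the 6 genes of ER-associated degradation, the route that returns misfolded protein to the cytosol for destruction, passed the test, and their median change was -0.11 (1 of them, Herpud1, was lower at an unadjusted p under 0.05, as were 15.3% of all genes). Herpud1 read 11.73, 11.51 and 11.61 with PBS and 9.84, 10.41 and 11.23 with mD1R. The groups did not overlap, but mD1R replicate 3 lay close to the PBS arrays. The change was -1.12 ± 0.33 (95% interval -1.87 to -0.37, adjusted p = 0.0592), with -1.60 and -0.33 in the spike-in sets, and -1.49 with an adjusted p of 0.00384 without mD1R replicate 3. With that array left out, 1560 genes rose and 1431 fell, against 1046 and 873 with all arrays. A dimmer Herpud1 probe set changed by -1.04 (adjusted p = 0.0561).

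Derl3, a derlin of the translocation complex expressed in secretory cells, had the widest error of the arm. It read 7.86, 8.75 and 9.06 with PBS and 6.58, 6.86 and 9.59 with mD1R. mD1R replicate 3 was above every PBS array and the other mD1R arrays were below all of them. The change over all arrays was -0.89 ± 0.75 (adjusted p = 0.472), with -1.15 and 0.68 in the spike-in sets, and without mD1R replicate 3 it was -1.84 (adjusted p = 0.0149). That setting drops the 1 mD1R array above the PBS range, and 1431 genes fell in it, against 873 with all arrays. Jchain, a plasma cell marker that is bright on these arrays, read 14.16, 14.73 and 14.73 with PBS and 11.49, 11.40 and 14.64 with mD1R, and its part in the Derl3 values was not tested.

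Syvn1 (Hrd1, the ubiquitin ligase of the complex) read 10.91, 10.98 and 10.88 against 10.67, 10.51 and 10.80, a change of -0.26 ± 0.16 (adjusted p = 0.327). Sel1l, its partner, read 10.97, 11.07 and 10.87 against 11.53, 11.21 and 11.15, a change of 0.33 ± 0.18 (adjusted p = 0.26). A dimmer Syvn1 probe set changed by 0.12 (adjusted p = 0.718), so the sign of Syvn1 rests on its brightest probe set. Edem1, which picks out misfolded glycoproteins, changed by 0.29 ± 0.20. The brightest probe set of Derl1, another derlin, changed by 0.05 ± 0.26, and a dimmer one by 0.75 ± 0.16 (adjusted p = 0.0256), from 10.31, 10.38 and 10.46 to 11.08, 11.24 and 11.07.

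The sensors did not move together. In this arm of 4 genes, 2 passed (50%, against 15.6% of all genes), 1 in each direction. Ern1, the kinase and RNase that splices Xbp1 RNA, read 10.01, 10.01 and 10.07 with PBS and 10.54, 10.65 and 10.68 with mD1R. The arrays of each group lay close to each other and well apart from the other group, and Ern1 rose by 0.59 ± 0.16 (95% interval 0.23 to 0.96, 1.51-fold, adjusted p = 0.048), with 0.58 and 0.64 in the spike-in sets. Eif2ak3, which encodes Perk, read 10.58, 10.67 and 10.70 with PBS and 9.57, 9.91 and 10.04 with mD1R. It fell by 0.81 ± 0.19 on the log2 scale (95% interval -1.24 to -0.38, 1.75-fold, adjusted p = 0.0312), and every mD1R array was below every PBS array. The change was -0.84 and -0.64 in the spike-in sets. A dimmer Eif2ak3 probe set changed by -2.21 (adjusted p = 0.11), and dimmer Ern1 probe sets by 0.13 and -0.69, so the direction of Ern1 rests on its brightest probe set.

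Atf6, the sensor that is cut in the Golgi to release a transcription factor, read 9.41, 9.53 and 9.77 against 10.05, 9.98 and 9.71. mD1R replicate 3 lay within the PBS range, and the change was 0.34 ± 0.19 (adjusted p = 0.279). Xbp1 read 13.34, 13.91 and 13.83 against 13.06, 13.53 and 13.96, a change of -0.18 ± 0.27 (95% interval -0.80 to 0.44, adjusted p = 0.7). Its 4 probe sets gave -0.18, -0.14, -0.08 and -0.09. The array values do not separate spliced from unspliced Xbp1 RNA, nor do any of these RNA levels measure the activity of the sensor proteins.

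In the integrated stress response, Trib3 rose and the other 5 did not pass (16.7% passed, against 15.6% of all genes). Trib3 is a pseudokinase and a target of Atf4 and Chop. It read 7.22, 7.68 and 7.47 with PBS and 9.26, 8.98 and 8.73 with mD1R, with the groups far apart. The change was 1.53 ± 0.24 (95% interval 0.97 to 2.09, 2.89-fold, adjusted p = 0.0126), and 1.90 and 1.15 in the spike-in sets. A second probe set gave 1.31 ± 0.28 (adjusted p = 0.0244). The brightest one carries the suffix for probes that may match unrelated transcripts. Without PBS replicate 3 its adjusted p was 0.0674, a setting under which no probe set on the array passed and 5853 had an unadjusted p under 0.05.

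Atf4 itself, the activator of this branch, read 12.76, 13.05 and 12.97 against 13.17, 12.89 and 12.70, a change of -0.01 ± 0.19 (95% interval -0.44 to 0.42). Atf4 is regulated largely at the level of translation, which these arrays do not measure. Ddit3, which encodes the death-associated factor Chop, read 10.86, 10.92 and 10.87 with PBS and 12.32, 10.19 and 11.33 with mD1R. The PBS arrays were nearly alike (SD 0.033) and the mD1R arrays lay on both sides of them (SD 1.06), so the change of 0.40 ± 0.46 had an adjusted p of 0.611. A dimmer Ddit3 probe set fell, from 8.90, 8.04 and 8.09 to 7.28, 6.10 and 6.99 (change -1.56 ± 0.39, adjusted p = 0.0376), against the sign of the brighter one.

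Chac1, a glutathione-degrading enzyme, read 7.34, 8.07 and 7.997 against 7.80, 8.37 and 8.74 and changed by 0.50 ± 0.32 (adjusted p = 0.348). Ppp1r15a (Gadd34), the phosphatase subunit that reverses eIF2 alpha phosphorylation, read 10.82, 11.46 and 11.16 against 10.63, 10.89 and 11.08, a change of -0.29 ± 0.22. Asns, asparagine synthetase, changed by -0.33 ± 0.32. The 4 genes with a CARE match, Trib3, Chac1, Asns and Herpud1, had changes of 1.53, 0.50, -0.33 and -1.12.

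Of the 3 translocation and COPII genes, none passed, where 15.6% of all genes did. Sec24d, a cargo-binding COPII coat subunit, read 9.25, 9.21 and 9.27 against 9.89, 10.01 and 9.57, without overlap, and its change was 0.58 ± 0.19 (95% interval 0.14 to 1.02, adjusted p = 0.0845). Sec61b, a subunit of the translocation channel, read 13.80, 13.70 and 13.90 against 12.97, 13.48 and 13.58, with every mD1R array lower and a change of -0.46 ± 0.20 (adjusted p = 0.176). Sec23b, another COPII coat subunit, changed by 0.02 ± 0.16 and was -0.004 when the arrays were centred.

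The motif groups give a description of the same values. None of the 10 genes with an ERSE match passed the test, and 7 of their changes were above 0 (median 0.25, from -0.89 to 0.61), beside 15.6% of all genes that passed and 55.5% above 0. Of the 22 with a window and no ERSE match, 5 passed and 14 changes were above 0 (median 0.27, from -1.12 to 1.53). The difference between these groups was not tested. The windows of Dnajb9 and Pdia4 hold the separate CCAAT and CCACG letters without the ERSE spacing, and that of Trib3 holds a CARE match downstream of the start.

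Several of these genes have more than 1 probe set, and the dimmer ones were not used for the values that represent a gene. Of the 82 member probe sets, 40 tested ones were not the brightest, and 30 of them had the sign of the brightest. A dimmer probe set passed for Trib3 in the same direction and for Hspa5, Derl1 and Ddit3, whose brightest probe sets did not pass. The spread was larger among the mD1R arrays than among the PBS arrays in 28 of the 36 genes (77.8%), against 65.4% of all genes tested.

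**Figure D4:**
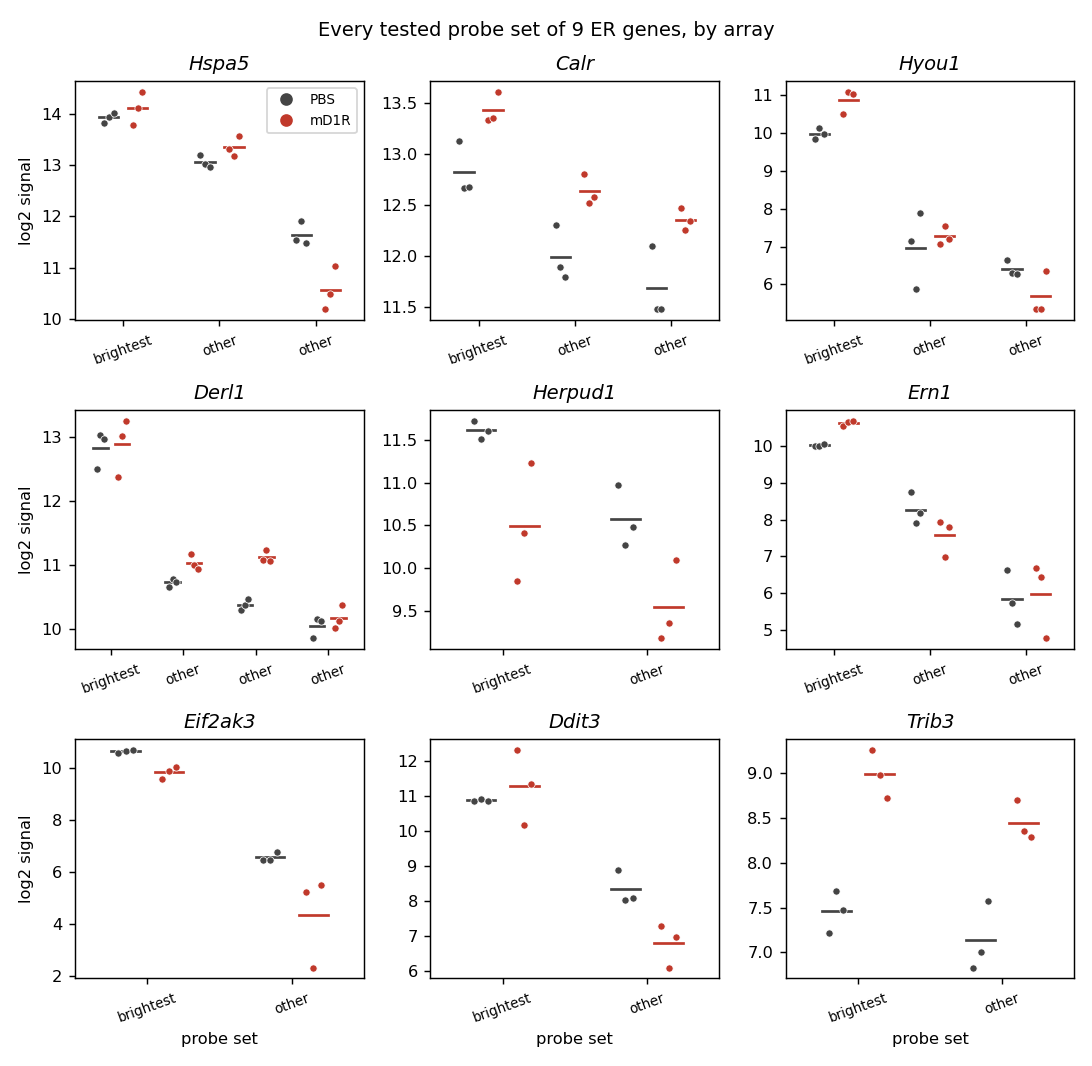
Log2 signal of every tested probe set of 9 ER genes on the PBS arrays (grey points) and mD1R arrays (red points), with the group mean as a line, 1 panel per gene and the brightest probe set on the left. The mD1R arrays are above the PBS arrays in both Trib3 probe sets, whereas the brightest and the dimmer Ddit3 probe sets differ in sign, at 0.40 and -1.56.

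The calls depended on the setting. Over 16 alternative settings, Trib3 passed in 15, Dnajb9 in 12, Pdia4 in 10, Hyou1 and Eif2ak3 in 9 each and Ern1 in 4, and none of the 6 changed sign in any of them. Leaving out PBS replicate 1 kept Dnajb9 and Trib3, PBS replicate 2 kept Trib3, and PBS replicate 3 kept none. Without mD1R replicate 1, Ern1 and Eif2ak3 were lost, and without mD1R replicate 2, Hyou1, Dnajb9, Ern1 and Eif2ak3 were lost. Without mD1R replicate 3, Ern1 was lost and Herpud1, Derl3 and Sec24d passed. Averaging all probe sets of a gene left Trib3 and Dnajb9, with Hyou1 at 0.16 (adjusted p = 0.717) and Ern1 at 0.11 (adjusted p = 0.842).

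The wider pathway was followed with 7 lists of 142 other ER and Atf4 genes, of which 135 were tested. The lists were chosen with earlier results of these data known. Shares above those of all genes, here and in the next paragraphs, are not independent of that choice and test nothing. In all, 20 rose (14.8%, against 8.49% of all genes) and none fell, with 33 higher and 3 lower at an unadjusted p under 0.05 in limma, a threshold that 18.8% of all genes passed higher and 15.3% lower. Their median change was 0.22, and 99 of the 135 were above 0 (73.3%, against 55.5% of all genes). With 1 array left out the counts moved across the whole array: among all genes 1046 rose as reported, 452, 222 and 0 with PBS replicate 1, 2 or 3 dropped, and 687, 242 and 1560 with mD1R replicate 1, 2 or 3 dropped. In the same order, 6, 4, 0, 10, 4 and 25 of the pathway genes rose.

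The list of Atf4 targets and amino acid genes held 7 of those that rose, out of 27 tested (25.9%, against 8.49% of all genes, median change 0.35). Of the 27 changes, 22 were above 0 (81.5%, against 55.5% of all genes). Psat1 (-0.44) and Phgdh (-0.52) were lower on every mD1R array without passing (adjusted p = 0.176 and 0.181). Atf5, a stress transcription factor in the Atf4 branch, read 8.06, 8.54 and 8.53 with PBS and 11.27, 10.52 and 10.27 with mD1R, a change of 2.31 ± 0.29 (4.97-fold, adjusted p = 0.0104). Slc3a2, the heavy chain of amino acid transporters, rose by 1.30 ± 0.18 (2.46-fold, adjusted p = 0.0112). Sars, seryl-tRNA synthetase, rose by 0.91 ± 0.18 (1.87-fold, adjusted p = 0.0196), and a dimmer Sars probe set by 0.97 (adjusted p = 0.017). Trib3 of the 36 genes rose beside them, and Asns and Chac1 did not pass.

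Among 25 other folding and disulfide genes, 4 rose (16%, against 8.49% of all genes). Ppic, a cyclophilin prolyl isomerase, rose 3.10-fold (1.63 ± 0.22, adjusted p = 0.0109), Erp44, a thioredoxin-like protein that retains Ero1 in the ER, 1.65-fold (0.72 ± 0.16, adjusted p = 0.0268), and Erp29, an ER escort protein, 1.54-fold (0.63 ± 0.16, adjusted p = 0.0425). Of 19 other degradation genes, 3 rose (15.8%, against the same 8.49%). These were Os9, a lectin for misfolded glycoproteins (1.61-fold, adjusted p = 0.0356), Derl2, a derlin (1.75-fold, adjusted p = 0.0366), and Edem2, a mannosidase that starts the trimming of such glycoproteins (1.67-fold, adjusted p = 0.0378). Dimmer probe sets of Os9, Derl2, Edem2 and Erp44 had changes of the same sign and did not pass. The call of Erp29 was lost with the spike-in set as a block (adjusted p = 0.0523).

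Of 13 other sensor and signalling genes, 2 rose (15.4%, against 8.49% of all genes). They were Mbtps2, the protease that releases Atf6 (1.99-fold, adjusted p = 0.0263), and Eif2ak4, which encodes Gcn2 (2.64-fold, adjusted p = 0.032). A dimmer Eif2ak4 probe set changed by 0.01 (adjusted p = 0.993). Map3k5, of the same list, was lower on every mD1R array without passing, at -1.77 ± 0.49 (adjusted p = 0.0524). In limma its adjusted p was 0.0167 with the replicate block and 0.0295 with the spike-in set as a block. Of 21 other transport genes, 3 rose (14.3%, against 8.49%). They were Mcfd2 (2.63-fold, 1.39 ± 0.17, adjusted p = 0.00968) and Lman1 (1.83-fold, 0.87 ± 0.20, adjusted p = 0.0297), the subunits of one cargo receptor, and Sec24a, a COPII coat subunit (1.89-fold, adjusted p = 0.0159). A dimmer Sec24a probe set changed by -1.92 and did not pass (adjusted p = 0.231), and of the 4 dimmer Lman1 probe sets 1 passed, at 0.86 (adjusted p = 0.0351), and 1 was below 0, at -0.10. Krtcap2 was the 1 of 10 oligosaccharyltransferase genes to rise (10%, against 8.49%), by 1.68-fold (adjusted p = 0.0399). With the spike-in set as a block its adjusted p was 0.0549, and its dimmer probe set changed by 0.41 (adjusted p = 0.137). None of 20 signal recognition, translocon and signal peptidase genes passed, with 4 higher and 1 lower at an unadjusted p under 0.05, where 18.8% and 15.3% of all genes lay.

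**Figure D5:**
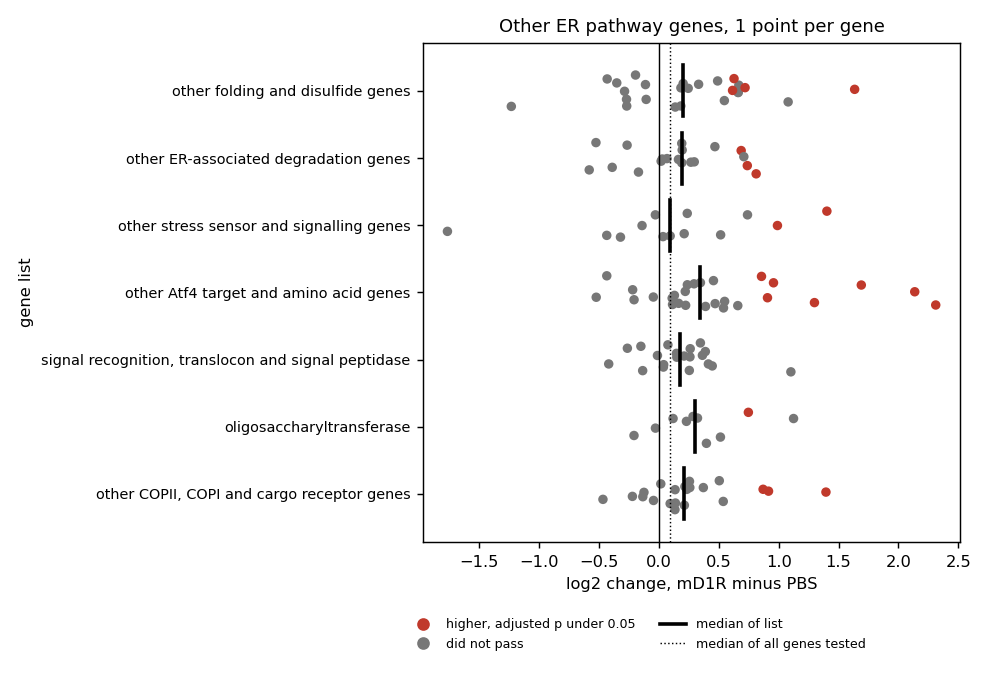
Log2 change with mD1R of each tested gene in the 7 lists of other ER pathway genes, 1 row of points per list, with the list median as a bar, the median of all genes tested as a dotted line, and genes that rose in colour. The list medians run from 0.09 for sensor and signalling genes to 0.35 for Atf4 target and amino acid genes, beside 0.09 for all genes tested.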

How the data were processed

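RNA of 3 PBS and 3 mD1R samples was measured on 3' expression arrays. The authors deposited log2 signals for 45101 probe sets, made with MAS5 per the submitters' processing notes, which give no version. The 2% trimmed mean was 500 on the linear scale on every array, so arrays had been scaled one by one. Detection calls were not used here. MAS5 makes low signals noisy, so folds of dim genes are imprecise.

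The 27022 probe sets whose mean reached the 40th percentile (5.27) were kept. Values were compared as deposited with limma 3.58.1 in R 4.3.3 (lmFit, eBayes with a variance trend, two-sided), with Benjamini-Hochberg adjustment over the kept probe sets (threshold 0.05) and no block. The number of arrays limits the precision, with a median standard error of 0.31. The code was tested on simulated data.

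The genes, arms and lists were chosen with earlier results of these data known. All 36 genes are accounted for. By rule, values per array are given for members past the threshold and the 2 others of each arm with the smallest p. From each list, up to 3 called genes per direction, by p, whose groups did not overlap, are named. Of these, Atf5 has values per array. Values of Hspa5, Syvn1, Atf4, Ddit3, Derl3, Ero1l and Creld2, and of the marker Jchain, were added for their role or spread. A protein table was not used here. Alternatives covered scaling, pseudocount, filter, variance trend, array weights, replicate block, spike-in batch block, the mean of probe sets and each array left out. The spike-in split compares the BioB control with BioC, BioD and cre.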

Additional observations from a re-analysis of the deposited data

How the results depend on the processing

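Of 576 values of single ER genes under an alternative, 531 kept their status as called or not called. Another 37 lost the call, 8 gained it and 0 of the called ones reversed. Genes not called, 30 of the 36, counted as kept even where their sign changed, as for Sdf2l1 and Sec23b with centred arrays. The number of the 36 genes that rose (4 as reported) was 2 with arrays centred on their medians, 1 with no variance trend, 7 with array weights and 1 with the mean of all probe sets. The number that fell (2) was 0 with no variance trend and 1 with the mean of probe sets. Over all probe sets, 1657 rose and 1756 fell as reported, 1077 and 1136 with no variance trend, and 3112 and 3396 with array weights. Of the other pathway genes 20 rose as reported, 13 with centred arrays, 6 with no variance trend and 11 with the mean of probe sets. None fell as reported, and 1 fell with a pseudocount of 32, a filter at the 60th percentile, array weights, a block for the spike-in set, the replicate block or the mean of probe sets. The median change of the 36 genes (0.28) was 0.16 with array weights and 0.19 with the mean of probe sets, which also gave 0.17 for chaperones and -0.054 for the integrated stress response. With each array left out in turn, 0 to 4 of the 36 rose and 0 to 4 fell, 0 to 2523 probe sets rose and 0 to 3042 fell, and 0 to 25 other pathway genes rose and 0 to 2 fell. The median ran from -0.046 to 0.17 for the sensors and from -0.084 to 0.23 for the integrated stress response. With the replicate block, 3 of the 36 rose and 3 fell (Ern1 lost, adjusted p = 0.0602, Herpud1 gained, adjusted p = 0.0404), 2314 probe sets rose and 2305 fell, and 22 other pathway genes rose. Same-numbered arrays correlated at 0.31, 0.03 and 0.13 in their deviations, and PBS replicate 2 correlated best with mD1R replicate 3, so the numbers were not treated as pairs. The other causes of these shifts were not tested. With 3 arrays a group, an exact permutation test of 1 gene cannot go below p = 0.10, and detection calls were not used here, so background limits dim probe sets to an unknown degree.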
